A study of Mus musculus with 4 samples.

Results

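Mitochondrial ribosomal protein genes are described here on 4 one-color arrays of sorted mouse blood progenitors. The members were chosen by gene symbol: every probe set with a single symbol that starts with Mrpl or Mrps followed by a number. This rule gave 77 genes of 19938 with a symbol of their own, measured by 85 of 28853 probe sets counted, with 53 probe sets (48 symbols) named for the large subunit and 32 (29 symbols) for the small subunit. The family itself was taken up with earlier results of these arrays known, so its differences are given as a description, with no test. RefSeq (GRCm38.p6) lists 78 protein-coding genes of this kind. The one without a member is Mrpl53, whose probe set also carries the symbol Ccdc142. That probe set was left out, and its signals of 7.02 (WT) and 6.71 (Bcl11a-/-) in GMPs and 6.70 (WT) and 6.50 (Bcl11a-/-) in MPPs lay close together.

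The study asked how loss of the zinc finger transcription factor Bcl11a alters early hematopoietic progenitors. Recipient B6.SJL mice received 1200 rad, a lethal dose, and were then injected with fetal liver cells of either WT or Bcl11a-/- fetuses. The Bcl11a-/- fetuses carried a germline allele that lacks the first exon, so the deletion was present in every donor cell rather than in 1 lineage. Donor-derived granulocyte-macrophage progenitors (GMPs) and multipotent progenitors (MPPs, sorted as CD150-negative LSK cells) were taken from bone marrow 4 weeks after transfer by the sample labels, whereas the study's methods give 4 or 6 weeks. All 4 groups therefore come from irradiated hosts. For each donor genotype the sorted cells were pooled and RNA was isolated from the pool, for which the sources used here give no count of mice. Each of the 4 combinations of genotype and population was measured on 1 array, so no difference below has a replicate check, and no SD, interval or p-value can be attached to any of them. Values are log2 signals, and a log2 difference of 1 is a 2-fold difference. Where 4 signals are listed without labels, GMPs come before MPPs and WT before Bcl11a-/- cells. In such pools, fewer cells of a kind and less RNA per cell cannot be told apart.

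Mitochondria hold their own ribosomes, which translate the few membrane proteins of the respiratory chain and ATP synthase that the mitochondrial genome encodes. The RNAs of these ribosomes are made from mitochondrial DNA, but all of their proteins are encoded in the nucleus, translated in the cytosol and imported. The small subunit binds the mRNA and reads its codons. The large subunit joins amino acids and releases the chain through an exit tunnel that faces the inner membrane. Many of the proteins have a bacterial counterpart, and others were added during the evolution of mitochondria. Blood stem cells and the earliest progenitors are known for low mitochondrial activity, which rises as cells become committed.

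The starts of a few members are shown. Mrps18c gave the lowest and Mrpl49 the highest difference between Bcl11a-/- and WT MPPs, and Mrpl23 the lowest in the large subunit. Mrpl34 (-1.28) was also lower by over 2-fold, but Mrps35 (-1.90) and Mrpl50 (-1.37), which were lower still, are not shown. Mrpl46 and Mrps11 share their start region with each other. The sequences are from RefSeq (build GRCm38.p6), 5′ to 3′ on the strand of the gene, and end at the base before the transcription start. They run for at most 150 bases and stop where another annotated gene begins. Capitals mark letters that match 1 of 5 short motifs in either orientation: TGCGCA (core of the site of NRF1, a regulator of nuclear genes for mitochondria), CCGGAAG (ETS factors such as GABP), AAGATGGCG (YY1), CACGTG (the E-box bound by MYC) and GGGCGG (the GC box bound by Sp1). None of the 5 motifs contains another. Mrps18c, with the lowest MPP difference, lies at chr5:100798662-100798758 on the plus strand, Mrpl23 at chr7:142532882-142533031 on the plus strand, Mrpl34 at chr8:71464776-71464925 on the plus strand, and Mrpl49, with the highest MPP difference, at chr19:6057756-6057905 on the minus strand. The last sequence is the whole 41-base stretch between Mrpl46, which is transcribed leftward, and Mrps11, which is transcribed rightward, at chr7:78783090-78783130, written on the plus strand.
Mrps18c: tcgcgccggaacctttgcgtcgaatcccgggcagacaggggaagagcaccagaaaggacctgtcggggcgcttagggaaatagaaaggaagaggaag
Mrpl23: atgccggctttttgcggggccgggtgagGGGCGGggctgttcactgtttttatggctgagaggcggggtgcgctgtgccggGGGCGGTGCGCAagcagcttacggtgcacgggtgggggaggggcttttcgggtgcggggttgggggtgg
Mrpl34: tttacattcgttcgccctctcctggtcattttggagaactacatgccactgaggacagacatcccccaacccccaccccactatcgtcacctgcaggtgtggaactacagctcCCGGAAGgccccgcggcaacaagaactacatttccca
Mrpl49: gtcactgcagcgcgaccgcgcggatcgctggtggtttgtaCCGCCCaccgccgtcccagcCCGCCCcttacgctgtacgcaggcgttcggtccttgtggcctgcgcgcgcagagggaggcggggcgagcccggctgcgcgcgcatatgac
Mrpl46 and Mrps11: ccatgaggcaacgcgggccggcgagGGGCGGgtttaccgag

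Some properties of the whole arrays touch these values. The SD over all probe sets was 2.30 and 2.28 on the GMP arrays, 2.21 in WT MPPs and 2.10 in Bcl11a-/- MPPs, so the spread was narrowest on the array where the members were lowest. Bcl11a signal was lower in both Bcl11a-/- populations, by 1.25 on the log2 scale in MPPs (9.89 against 8.64) and by 0.83 in GMPs (8.60 against 7.77), which is a weak check since probes outside the first exon can still find transcript. The labels were set against marker genes by the log2 of their summed signals. For 9 GMP markers it was 15.01 (WT) and 14.94 (Bcl11a-/-) in GMPs and 13.45 (WT) and 12.21 (Bcl11a-/-) in MPPs, and for 8 measured stem cell and MPP markers it was 10.95, 11.22, 11.76 and 11.95 in the same order. Such sums are weighted to the brightest genes. Of the 8 stem cell and MPP markers, Flt3 alone was lower in Bcl11a-/- than in WT MPPs (7.71 against 9.31, 3.04-fold). Gata2 and Procr were each lower by 0.12 in WT MPPs than in WT GMPs. Within MPPs, 4 of 9 GMP markers and all 6 measured B lineage markers were lower by over 2-fold in Bcl11a-/- cells. Of all probe sets 2.51% were lower by that much between these arrays, or 4.82% of those with a signal of at least 6. Of the 9 GMP markers 6 were lower at all, whereas Cebpe (0.87), Fcgr3 (0.47) and Cebpa (0.02) were higher. The B lineage sum was 11.83 in WT and 8.57 in Bcl11a-/- MPPs. Erythroid markers (4 measured) summed to 10.56 in WT GMPs and between 12.31 and 12.66 on the other arrays. Plasmacytoid dendritic cell markers (4) summed to 10.43 in WT and 9.15 in Bcl11a-/- MPPs, with 1 of 4 lower by over 2-fold, and to 9.90 and 9.89 in GMPs. Of these 4 markers 3 were lower in Bcl11a-/- MPPs, and Siglech was 0.17 higher. Monocyte markers (5) summed to 10.74 in WT and 10.02 in Bcl11a-/- MPPs, with 3 of 5 lower and none past 2-fold, and to 10.77 and 10.40 in GMPs. These sums, like the members, were lower on the array of Bcl11a-/- MPPs. Late neutrophil markers (5) lay between 13.13 and 13.68, megakaryocyte markers (3) between 7.81 and 8.83, and T and NK cell markers (3) between 6.10 and 6.45. The part of cell composition in the differences of ribosomal protein genes was not tested.

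The mitochondrial ribosomal protein genes had their highest signals in GMPs and their lowest in Bcl11a-/- MPPs. The median over the 53 large subunit probe sets was 8.65 (WT) and 8.64 (Bcl11a-/-) in GMPs and 8.09 (WT) and 7.68 (Bcl11a-/-) in MPPs. For the 32 small subunit probe sets it was 8.72, 8.58, 8.24 and 8.08. Both subunits thus followed the same order of arrays, whereas the median of all probe sets went slightly the other way, from 5.50 in WT GMPs to 5.70 in Bcl11a-/- MPPs. The array of Bcl11a-/- MPPs gave the lowest of the 4 signals for 71 of 85 members (44 large, 27 small), against 24.1% of all probe sets. Both MPP arrays lay below both GMP arrays for 59 members (35 large, 24 small), against 21.0% of all probe sets. The opposite order held for 2 members, Mrpl32 and Mrpl39, against 34.0% of all probe sets. These shares are over probe sets of lower signal than the members (a median mean signal of 5.61 against 8.30). No share at matched signal was taken for these orders, and the spread of signals differed between the arrays. Mrpl32, a zinc-binding protein that must be processed by a mitochondrial protease before assembly, had signals of 8.80 (WT) and 8.90 (Bcl11a-/-) in GMPs and 9.15 (WT) and 9.33 (Bcl11a-/-) in MPPs. The highest of the 4 signals was found in WT cells of the GMP pool for 43 members and of the MPP pool for 14, and in Bcl11a-/- cells for 26 (GMPs) and 2 (MPPs). Every member had a signal of at least 6 on 1 or both arrays of each comparison, so none was near the floor of the arrays throughout.

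**Figure D1:**
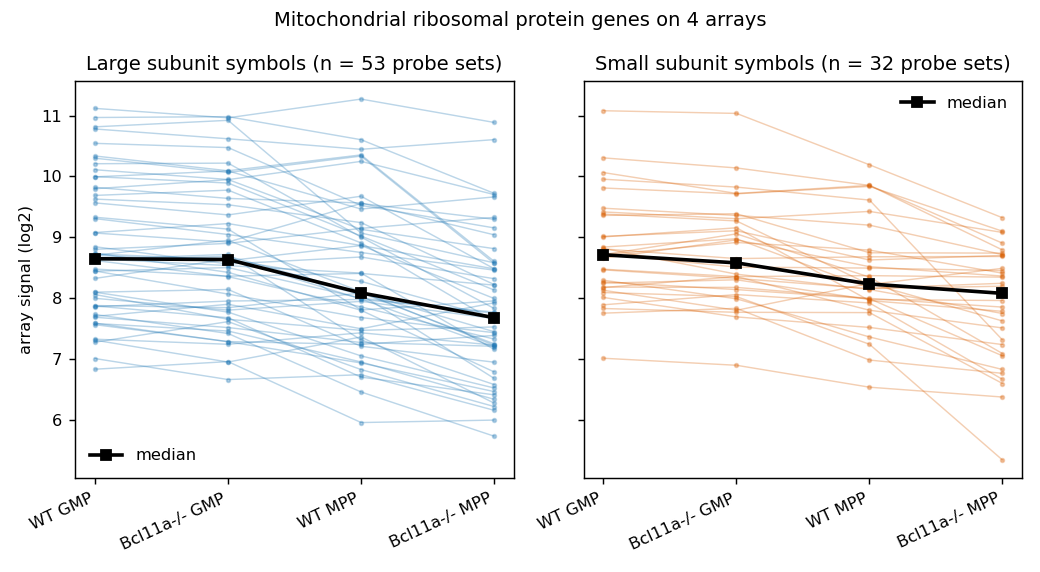
Log2 array signal of each mitochondrial ribosomal protein probe set (thin lines) on the 4 arrays, large subunit symbols (53 probe sets) at left and small subunit symbols (32) at right, with the median as a thick black line. The median of the large subunit goes from 8.65 in WT GMPs to 7.68 in Bcl11a-/- MPPs, and a few lines of the small subunit drop steeply between the MPP arrays.

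Between the MPP arrays, most mitochondrial ribosomal protein genes were lower in Bcl11a-/- cells. The median log2 difference, Bcl11a-/- minus WT, was -0.52 for the large subunit (1.44-fold lower) with a range of -1.76 to 0.43, and -0.32 for the small subunit (1.25-fold lower) with a range of -2.30 to 0.27. It was 0.05 over all probe sets and -0.04 over those with a signal of at least 6 on either array. Of the 85 members 72 were below 0 (45 large, 27 small), as were 44.0% of all probe sets. A difference greater than 2-fold was seen for 16 members (10 large, 6 small) that stand for 15 symbols, and each of the 16 was lower in Bcl11a-/- MPPs. Among all probe sets 2.51% were lower by that much, or 4.82% of those with a signal of at least 6. No member was higher by over 2-fold, against 1.39% of all probe sets. After renewed quantile normalization of the 2 arrays the large subunit median was -0.35. With probe sets of 1 gene averaged, 11 of 77 genes were lower by over 2-fold.

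**Figure D2:**
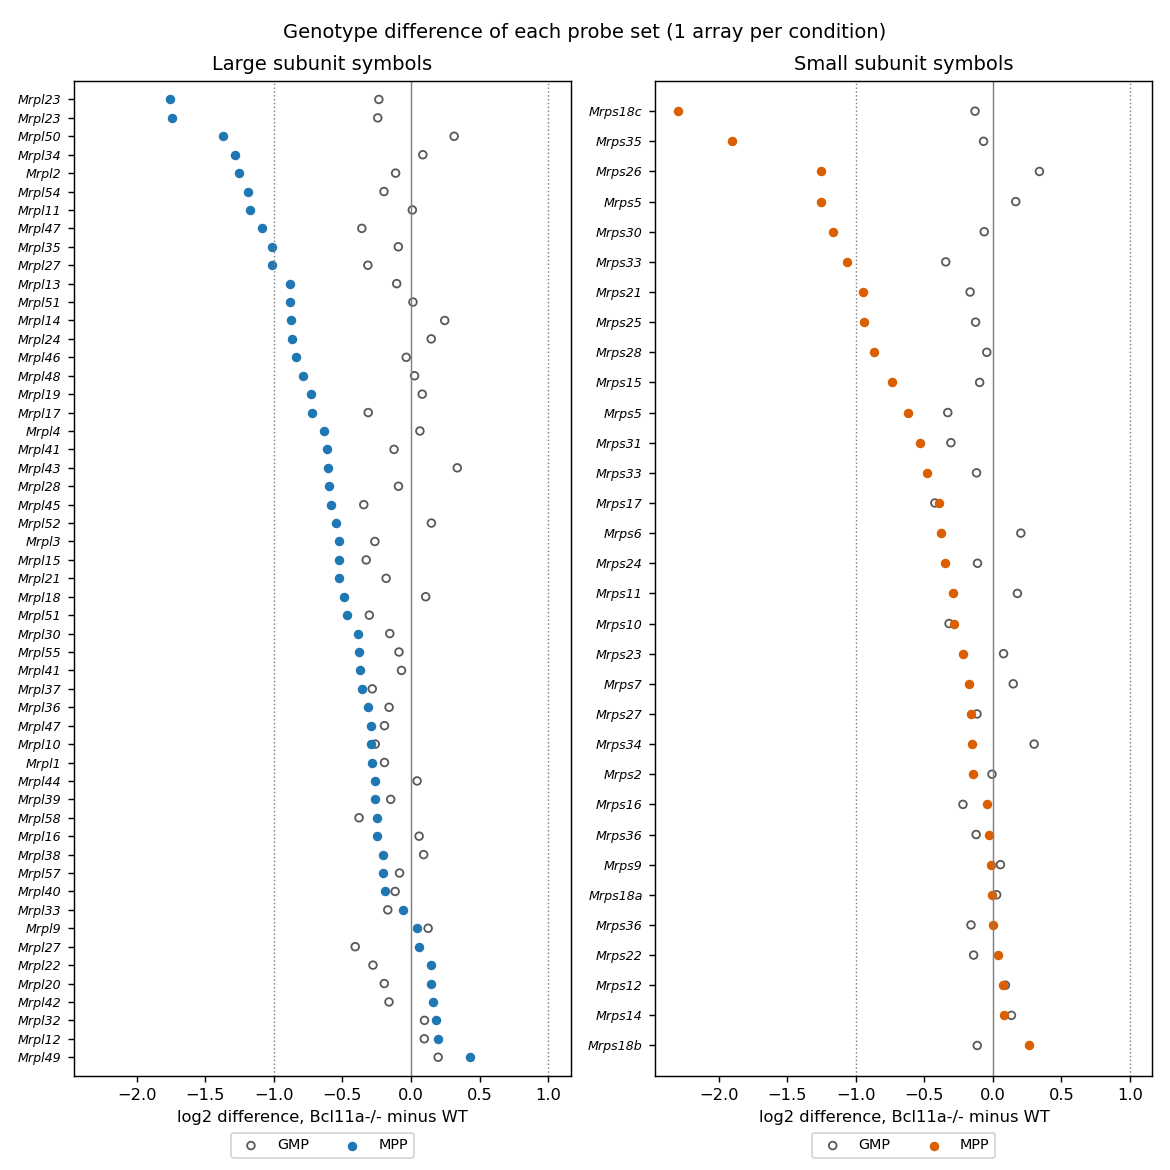
Log2 difference, Bcl11a-/- minus WT, of each probe set in MPPs (filled points) and in GMPs (open points), ordered by the MPP value within the large subunit (left) and the small subunit (right), with 1 array per condition. Dotted lines mark 2-fold. The MPP points run from -1.76 to 0.43 (large) and from -2.30 to 0.27 (small), while every GMP point lies within 0.5 of 0.

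In the small subunit, Mrps18c stood lowest. It encodes 1 of 3 mammalian relatives of a single bacterial protein. Its signal was 9.96 (WT) and 9.83 (Bcl11a-/-) in GMPs and 9.61 (WT) and 7.32 (Bcl11a-/-) in MPPs, a 4.91-fold difference between the MPP arrays. Thus 3 arrays lay close together and the fourth stood apart. The other relatives behaved otherwise. Mrps18b was 9.38, 9.27, 8.23 and 8.49 on the same arrays, low on both MPP arrays and 0.27 higher in Bcl11a-/- than in WT MPPs. Mrps18a, whose protein sits on the large subunit in spite of its name, was 9.36, 9.39, 8.75 and 8.74. Its MPP values differed by 0.01.

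Mrps35, a mitochondria-specific protein of the head of the small subunit, had signals of 8.10 (WT) and 8.03 (Bcl11a-/-) in GMPs and 7.25 (WT) and 5.35 (Bcl11a-/-) in MPPs, and the last was the lowest value of any member on any array. The MPP arrays differed 3.73-fold, a fold that rests on a signal below the median of all probe sets on the Bcl11a-/- MPP array (5.70). Here WT MPPs already lay below both GMP arrays. Mrps26, another mitochondria-specific protein, read 8.72 (WT) and 9.06 (Bcl11a-/-) in GMPs and 8.35 (WT) and 7.09 (Bcl11a-/-) in MPPs, 2.39-fold lower in Bcl11a-/- than in WT MPPs and slightly higher in Bcl11a-/- than in WT GMPs. Mrps30, whose protein is also found on the large subunit, held 7.83, 7.77 and 7.77 on the first 3 arrays and 6.60 in Bcl11a-/- MPPs, a 2.24-fold difference.

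In the large subunit the lowest MPP difference belonged to Mrpl23, which has a bacterial counterpart and lies at the rim of the exit tunnel. It was measured by a pair of probe sets that gave nearly the same values. The probe set numbered among genes of the Mrpl23 chromosome read 10.34 (WT) and 10.09 (Bcl11a-/-) in GMPs and 10.35 (WT) and 8.61 (Bcl11a-/-) in MPPs, with an MPP difference of -1.75. The other, numbered among genes of another chromosome, on which RefSeq names a pseudogene of Mrpl23, gave -1.76. Whether the pair reads separate transcripts is uncertain, so its agreement is a weak check. As for Mrps18c, 3 arrays lay close together. Mrpl50, a mitochondria-specific protein, read 8.33, 8.64, 8.06 and 6.69 in that order of arrays, 2.59-fold lower in Bcl11a-/- than in WT MPPs. Mrpl34, a very small protein with a bacterial counterpart, read 9.69, 9.78, 8.91 and 7.63, 2.43-fold lower.

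Mrpl2 lies near the catalytic center of the large subunit, and Mrpl11 and Mrpl54 belong to the stalk region, where translation factors dock. Mrpl2 had signals of 8.65 (WT) and 8.54 (Bcl11a-/-) in GMPs and 8.41 (WT) and 7.16 (Bcl11a-/-) in MPPs. For Mrpl54 they were 9.57, 9.37, 9.68 and 8.49. Both showed the pattern of a single low array, with MPP differences of -1.25 and -1.19. Mrpl11 differed from them in being stepwise lower, at 10.21, 10.22, 9.01 and 7.83. Its difference was -1.17 between the MPP arrays and -1.20 between WT MPPs and WT GMPs. Mrpl35, with a bacterial counterpart, read 9.63, 9.54, 9.24 and 8.23 and lay just inside the 2-fold threshold, at -1.02. The nearest members outside it were Mrps21 and Mrps25 at -0.95 and -0.94.

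The members that were higher in Bcl11a-/- than in WT MPPs numbered 13, and their differences were small. Mrpl49, a mitochondria-specific protein, led with 7.70 (WT) and 7.90 (Bcl11a-/-) in GMPs and 7.50 (WT) and 7.93 (Bcl11a-/-) in MPPs, a difference of 0.43. Mrpl12, the stalk protein that in bacteria recruits translation factors, read 9.99, 10.09, 9.47 and 9.66 and was 0.20 higher in Bcl11a-/- MPPs, unlike its neighbors Mrpl11 and Mrpl54. Mrpl32 (0.18), Mrpl42 (0.16), Mrpl20 (0.15), Mrpl22 (0.15), Mrps14 (0.08), Mrps12 (0.08), 1 probe set of Mrpl27 (0.06), Mrpl9 (0.04) and Mrps22 (0.04) followed. No region of the ribosome held all of the low members. By gene, the MPP median was -0.64 over 8 proteins of the exit site, -0.49 over 7 of the central protuberance, -0.29 over 5 of the stalks, -0.28 over 9 of the small subunit head and -0.39 over 16 of its body, with 1, 0, 2, 1 and 2 genes lower by over 2-fold. Of all probe sets 2.51% were lower by that much, or 4.82% of those with a signal of at least 6. Not every gene was assigned to a region. Mrpl50, Mrpl34, Mrpl2, Mrps30 and Mrpl35, all lower by over 2-fold, were in none of these lists. Proteins with a bacterial counterpart had medians of -0.52 (31 large) and -0.29 (17 small), and mitochondria-specific proteins -0.49 (19 large) and -0.53 (9 small), counted by the subunit on which the protein sits.

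Probe sets of 1 gene did not always give the same value. A pair of probe sets was present for 8 genes (Mrpl23, Mrpl27, Mrpl41, Mrpl47, Mrpl51, Mrps33, Mrps36 and Mrps5), and the MPP differences within a pair lay 0.49 apart in the median, from 0.01 for Mrpl23 to 1.07 for Mrpl27, whereas the GMP differences lay 0.13 apart. Mrpl27 read 7.80 in WT MPPs and 6.79 in Bcl11a-/- MPPs by 1 probe set (MPP difference -1.01) but 7.47 and 7.53 by the other (0.06). Mrps5 gave -1.25 and -0.62, Mrpl47 gave -1.09 and -0.29, and Mrps33 gave -1.06 and -0.48. For these 4 genes the count of differences over 2-fold therefore rests on 1 probe set of each. Mrpl41 (-0.61 and -0.37) and Mrpl51 (-0.88 and -0.47) were lower by both probe sets, and Mrps36, now known as a component of the 2-oxoglutarate dehydrogenase complex, was near 0 by both (-0.02 and 0.01). For 7 of the 85 probe sets most neighbors in the array's numbering belong to another chromosome than the named gene. These were 1 probe set each of Mrpl23, Mrpl27, Mrpl41, Mrpl51, Mrps33 and Mrps36 and the only probe set of Mrpl48. For Mrpl23, Mrpl27, Mrpl48 and Mrps36, RefSeq names a pseudogene on the very chromosome of those neighbors. For Mrpl41, Mrpl51 and Mrps33 it names none. Whether these probe sets read the gene or a near-identical copy is uncertain. Those of Mrpl23 (-1.76), Mrpl27 (-1.01) and Mrps33 (-1.06) were among the members lower by over 2-fold in Bcl11a-/- MPPs. Without the 7 probe sets 13 members were lower by over 2-fold in Bcl11a-/- MPPs, against 2.50% of all probe sets.

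In GMPs the same genes differed little with genotype. The median log2 difference, Bcl11a-/- minus WT, was -0.11 for the large and -0.10 for the small subunit, and the 85 values ran from -0.42 to 0.34. Below 0 were 55 members, as were 48.0% of all probe sets. No member differed by over 2-fold in either direction, against 0.350% of all probe sets lower (0.384% of those with a signal of at least 6) and 0.319% higher. The lowest values were those of Mrps17 (-0.42), 1 probe set of Mrpl27 (-0.41), Mrpl58 (-0.38), 1 probe set of Mrpl47 (-0.36) and Mrpl45 (-0.34). Mrpl58, a release factor-like hydrolase built into the large subunit, read 8.45 in WT and 8.07 in Bcl11a-/- GMPs. The highest were Mrps26 (0.34), Mrpl43 (0.34), Mrpl50 (0.31), Mrps34 (0.30) and Mrpl14 (0.25).

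The GMP and MPP comparisons use separate arrays and can be set side by side. Lower in Bcl11a-/- cells of both populations were 48 members, 24 were lower in MPPs and higher in GMPs, 7 were higher in MPPs and lower in GMPs, and 6 were higher in both. The same counts were not taken over all probe sets. With 72 members below 0 in MPPs and 55 in GMPs, a large overlap would be found without any link between the populations. Of the 16 members lower by over 2-fold in MPPs, 11 were lower and 5 were higher in GMPs, Mrpl11 by 0.01, a sign that turned when the values were centred on the median of all probe sets. Over all 85 members the split in GMPs was 55 lower and 30 higher. Across the 85 probe sets the Spearman correlation of the GMP with the MPP difference was 0.04, against 0.14 over all 28853. Probe sets are not independent replicates, and those of 1 comparison share the same pair of arrays. The MPP difference minus the GMP difference had a median of -0.31 for the large and -0.29 for the small subunit and of 0.02 over all probe sets. It was below -1 for 13 of 85 members, against 2.71% of all probe sets, and above 1 for none, against 2.14%.

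**Figure D3:**
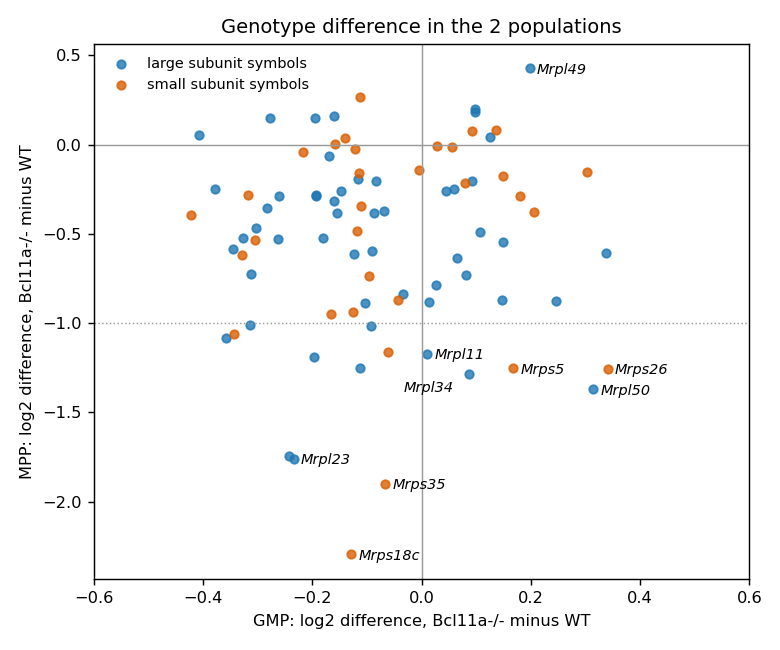
Log2 difference, Bcl11a-/- minus WT, in GMPs (horizontal) against MPPs (vertical) for the 85 probe sets, large subunit symbols in blue and small subunit symbols in orange. The dotted line marks 2-fold lower in MPPs. The points spread over more than 2.5 units vertically but lie between -0.42 and 0.34 horizontally.

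Within WT cells, mitochondrial ribosomal protein genes were lower in MPPs than in GMPs. The median log2 difference, WT MPP minus WT GMP, was -0.44 for the large and -0.33 for the small subunit, against 0.06 over all probe sets. Of the members 68 of 85 were below 0, as were 42.8% of all probe sets. Lower by over 2-fold were 10 members (8 large, 2 small), against 2.67% of all probe sets and 5.46% of those with a signal of at least 6, and none was higher by that much, against 1.55%. After renewed quantile normalization 5 of 85 members were lower by over 2-fold, against 2.26% of all probe sets. No share at a signal of at least 6 was taken for that setting, so an excess at like signal is not shown there. The medians were then -0.29 (large) and -0.15 (small), and after lowess centring the small subunit median was -0.21. Mrpl18, a protein of the central protuberance, had signals of 10.81 (WT) and 10.92 (Bcl11a-/-) in GMPs and 9.07 (WT) and 8.58 (Bcl11a-/-) in MPPs, so both GMP arrays stood well above both MPP arrays. Its difference between the WT arrays was -1.74. Mrpl20, with a bacterial counterpart, read 9.33, 9.14, 7.81 and 7.96 (-1.52 between the WT arrays). It differed strongly with population and little with genotype. Mrpl19 (-1.32), Mrpl17 (-1.27), Mrpl11 (-1.20), 1 probe set of Mrpl47 (-1.17), Mrps18b (-1.16), Mrps7 (-1.05), Mrpl15 (-1.04) and 1 probe set of Mrpl41 (-1.02) made up the rest. The highest were Mrpl39 (0.49), Mrpl52 (0.45), Mrpl32 (0.34), Mrpl46 (0.21) and Mrpl55 (0.16).

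The comparison of WT MPPs with WT GMPs and that of the MPP genotypes share the WT MPP array, whose error enters them with opposite sign, so the members' own values are given side by side. Over the 10 members lower in WT MPPs than in WT GMPs by over 2-fold, the MPP genotype difference ran from -1.17 to 0.27 with a median of -0.43. Over the 16 members lower in Bcl11a-/- MPPs, the difference between WT MPPs and WT GMPs ran from -1.20 to 0.11.

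Within Bcl11a-/- cells the gap between MPPs and GMPs was wider. The median log2 difference, Bcl11a-/- MPP minus Bcl11a-/- GMP, was -0.96 for the large and -0.65 for the small subunit, against 0.11 over all probe sets. Of the members 80 of 85 were below 0, as were 39.6% of all probe sets. Lower by over 2-fold were 37 members (26 large, 11 small) of 35 symbols, against 5.91% of all probe sets and 12.1% of those with a signal of at least 6. None was higher, against 3.08%. This comparison shares its arrays with the others. Besides members described above, the 37 included Mrpl13 (-1.76), Mrpl14 (-1.72), Mrps28 (-1.71), Mrpl48 (-1.46), Mrpl43 (-1.39), 1 probe set of Mrpl51 (-1.26), Mrpl4 (-1.24), Mrps21 (-1.23), Mrpl24 (-1.23), Mrpl44 (-1.19), Mrps31 (-1.16), Mrpl36 (-1.13), 1 probe set of Mrpl41 (-1.12), Mrps25 (-1.09), Mrps23 (-1.07) and Mrpl3 (-1.03). The lowest values were those of Mrps35 (-2.68, or 6.42-fold), Mrps18c (-2.51) and Mrpl11 (-2.38). The highest were Mrpl32 (0.43), Mrpl39 (0.37) and Mrpl22 (0.10).

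**Figure D4:**
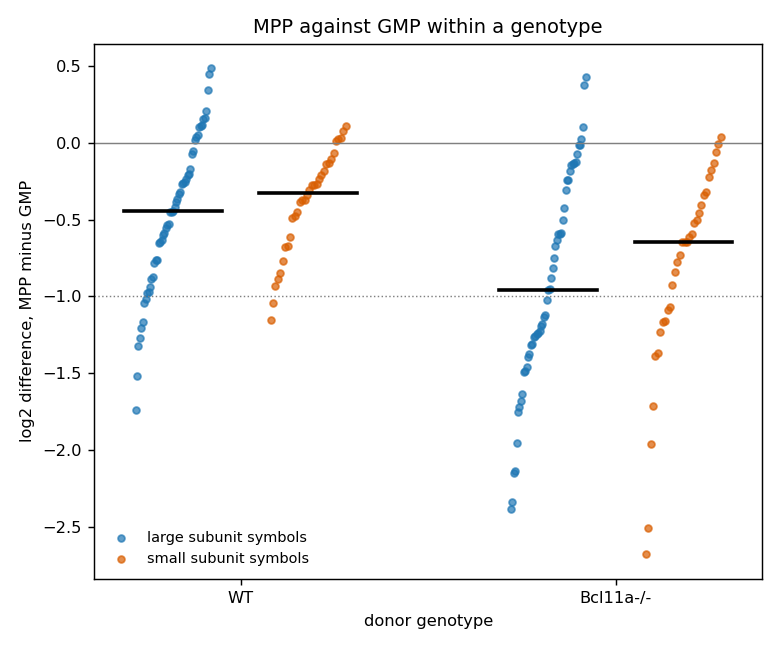
Log2 difference, MPP minus GMP, of each probe set within WT and within Bcl11a-/- donor cells, large subunit symbols in blue and small subunit symbols in orange. Points are sorted from low to high, black bars are medians and the dotted line marks 2-fold lower. The medians are -0.44 and -0.33 in WT and -0.96 and -0.65 in Bcl11a-/- cells.

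Other genes of mitochondrial translation showed smaller median differences between the MPP arrays. These lists were not matched to the members in signal, and the spread of signals differed between the arrays. Of all probe sets 2.51% were lower by over 2-fold there (4.82% of those with a signal of at least 6) and 1.39% were higher. A single gene past 2-fold in a short list therefore says little about the list. Ribosomal proteins under other symbols (4 measured) had a median of -0.15, and none exceeded 2-fold. Among them Dap3, a GTP-binding protein of the small subunit, read 7.66 in WT and 7.50 in Bcl11a-/- MPPs. The 22 assembly factors had a median of -0.16, with 1 gene lower and 1 higher by over 2-fold. The lower one was Fastkd2, an RNA-binding protein, at 6.69 (WT) and 6.90 (Bcl11a-/-) in GMPs and 7.21 (WT) and 6.20 (Bcl11a-/-) in MPPs, and the higher one was Mettl15, a methyltransferase of the small subunit rRNA, at 6.28, 6.09, 6.02 and 7.26. The 15 translation factors had a median of -0.13, with 1 lower, Tufm, the elongation factor that delivers tRNA to the ribosome. Tufm read 8.56, 8.78, 7.54 and 6.53, a stepwise pattern like that of Mrpl11. Its exchange factor Tsfm read 7.72, 8.12, 6.14 and 6.18, low on both MPP arrays with little difference between them.

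The 16 measured mitochondrial tRNA synthetases had an MPP median of -0.06 and none past 2-fold, with Cars2 the lowest at -0.63 and Rars2 the highest at 0.50. Among 13 genes of mitochondrial DNA expression (median -0.09), Hsd17b10, a subunit of mitochondrial RNase P, was lower by over 2-fold, at 9.38 (WT) and 9.63 (Bcl11a-/-) in GMPs and 8.80 (WT) and 7.48 (Bcl11a-/-) in MPPs. Tfam, which packages mitochondrial DNA, read 6.88, 6.86, 5.74 and 5.85, so the populations differed by more than the genotypes. The 13 nuclear regulators of mitochondrial genes had a median of 0.13, and 1 was higher by over 2-fold, Mycn, at 5.75, 5.94, 6.24 and 8.02 on the 4 arrays in the same order, 3.44-fold higher in Bcl11a-/- than in WT MPPs. Gabpa, the DNA-binding subunit of GABP, differed by -0.36 and Sp1 by 0.43. As for the lists above, single genes past 2-fold in MPPs stand beside 2.51% of all probe sets lower and 1.39% higher. In GMPs no gene of these 6 lists differed by over 2-fold with genotype, against 0.35% of all probe sets lower and 0.319% higher.

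Cytosolic ribosomal proteins and respiratory chain subunits were taken as families for comparison. The 82 respiratory chain and ATP synthase genes had an MPP median of -0.48 with 22 lower by over 2-fold and none higher, and a GMP median of -0.11. The largest differences there exceeded those of any ribosomal protein gene, as for Ndufs5 of complex I, with 9.96 (WT) and 9.53 (Bcl11a-/-) in GMPs and 9.42 (WT) and 5.57 (Bcl11a-/-) in MPPs. The 61 cytosolic ribosomal protein genes had an MPP median of -0.35 with 9 lower and a GMP median of 0.02. Of all probe sets 2.51% were lower by over 2-fold between the MPP arrays, or 4.82% of those with a signal of at least 6, and 1.39% were higher. Between WT MPPs and WT GMPs the cytosolic family had a median of -0.02 with 1 gene lower by over 2-fold, the respiratory family -0.32 with 7 lower and 1 higher, and the mitochondrial ribosomal proteins by gene -0.39 with 8 of 77 lower. The shares of all probe sets between these arrays were 2.67% lower (5.46% of those with a signal of at least 6) and 1.55% higher. The difference between the families was not tested, since genes of 1 array are not replicates, and the families were not matched in signal.

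**Figure D5:**
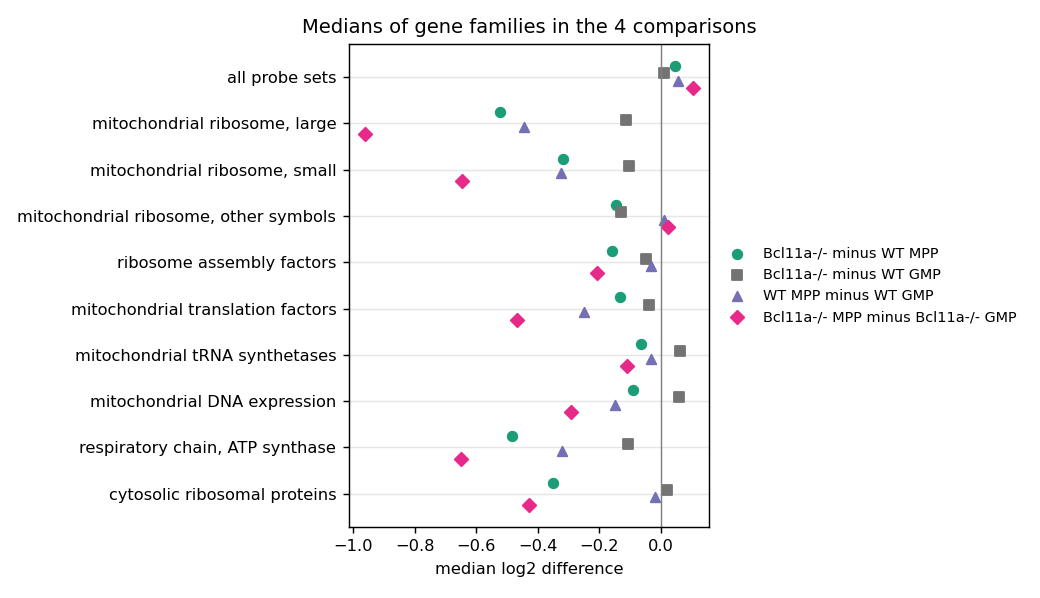
Median log2 difference of gene families (rows) in the 4 comparisons (symbols), with all 28853 probe sets in the top row. The families were not matched in signal. In the MPP genotype comparison the medians are -0.52 and -0.32 for the mitochondrial ribosome, -0.48 for the respiratory chain and -0.35 for cytosolic ribosomal proteins, and between -0.16 and -0.06 for the other mitochondrial translation lists.

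Mitochondrial ribosomal protein genes were compact and spread over 17 chromosomes. Their RefSeq span had a median of 7749 bp and ran from 828 bp for Mrpl34 to 121712 bp. It was 19734 bp in the median for the 3052 protein-coding genes with a mean signal of at least 8. That set includes the members that reach this signal, whereas the 77 members were not held to it. Over those genes the Spearman correlation of span with the MPP difference was 0.28, longer genes being higher in Bcl11a-/- MPPs, whereas over the 77 members it was -0.06. With mean signal it was -0.16 over the 3052 genes and -0.07 over the members. These correlations run across genes of the same pair of arrays and are a description.

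RefSeq promoter windows of 300 bases, from 250 before the start to 50 from it, were found for 68 of 77 genes. Searched in both orientations, TGCGCA was present for 21 of 68 genes (30.9%, against 7.76% of all 32851 promoters and 11.0% of protein-coding genes), CCGGAAG for 25 (36.8%, against 8.86% and 12.9%) and AAGATGGCG for 8 (11.8%, against 1.40% and 2.14%). GGGCGG was found for 34 (50.0%, against 35.7% and 49.2%) and CACGTG for 5 (7.35%, against 7.15% and 8.91%). The 3 first motifs were thus more frequent here and the others near the share of coding genes, in windows that were also richer in G and C (a median of 61.3% against 54.0% in the 150 bases before the start). The median MPP difference was -0.25 with and -0.52 without TGCGCA, -0.49 and -0.36 for CCGGAAG, -0.30 and -0.44 for AAGATGGCG, -0.36 and -0.38 for CACGTG, and -0.37 and -0.43 for GGGCGG. In the stretches printed above, Mrpl23 (MPP difference -1.76 and -1.75) holds GC boxes and TGCGCA, Mrpl34 (-1.28) holds CCGGAAG, Mrpl49 (0.43) holds GC boxes, and the 97 bases before Mrps18c (-2.30) hold none of the 5. The full 300-base window of Mrps18c, part of which lies beyond the printed stretch, holds the ETS motif, the E-box and the GC box, and Mrps18c is counted with these. The 150 bases before Mrpl50 (-1.37), which are not printed, hold none of the 5.

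Many members share their start region with a gene on the opposite strand. A start facing away within 1000 bp was found for 24 of 68 genes (35.3%), against 8.48% of 17491 protein-coding genes. Of the 23 partners measured with a single symbol, 3 were lower by over 2-fold in Bcl11a-/- MPPs, against 2.51% of all probe sets and 4.82% of those with a signal of at least 6. Mrpl46 and Mrps11, the 2 members that face each other across the 41 bases shown, had MPP differences of -0.84 and -0.29. Mrpl49 (0.43) starts 192 bp from Fau, which encodes a cytosolic ribosomal protein fused to a ubiquitin-like domain and had an MPP difference of -2.17. Mrpl50 (-1.37) starts 93 bp from Zfp189 (0.18), and Mrpl2 (-1.25) starts 141 bp from Klc4 (0.04). Mrps27 (-0.16) faces Ptcd2 (-1.10), and Mrpl47 (-0.69 as the mean of its probe sets) faces Ndufb5, a complex I subunit (-1.63). Mrps12 and Sars2, a mitochondrial tRNA synthetase, were both near 0 (0.08 and -0.05).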

How the data were processed

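RNA of sorted, pooled donor cells was amplified, labeled with biotin and hybridized to 4 one-color arrays, 1 per condition. Before deposit, the authors summarized probes by RMA with quantile normalization in ArrayStar (version not stated). Each probe set thus has 1 deposited log2 signal on each array. Scanner files were not used here. Quantile normalization can hide a difference in total mRNA per cell.

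Of 30177 rows, 1324 without annotation and with the lowest identifiers were taken as controls and left out. Gene names came from the platform annotation (21789 probe sets with 1 symbol, 1621 with several, 5443 unnamed here), and all 85 member symbols matched RefSeq GRCm38.p6 through Entrez identifiers. The columns were mapped by the labels, and no source used here names the build behind the array.

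The 4 log2 differences were computed per probe set, folds are 2 raised to them, and differences over 2-fold were counted. Lists by gene use the mean of a gene's probe sets. With 1 array per condition no test was run, and the number of arrays limits the precision. The members, the 23 gene lists (5 regions of the ribosome, bacterial homologues of each subunit, Mrps symbols on the large subunit, 6 lists of other mitochondrial translation genes and regulators, and 9 marker lists) and the comparison families were chosen with earlier results of these data known. Named genes are the 12 largest differences in each direction between MPP genotypes, 5 between GMP genotypes and between WT populations and 3 between Bcl11a-/- populations, every member past 2-fold in any comparison, members with over 1 probe set, members next to the threshold and from each list at most 3 genes per direction. Other names were chosen after their values were seen. Alternatives were a signal of at least 6, a floor at 5, centring on the median or a lowess curve (span 0.3), renewed quantile normalization, 1 value per gene, other thresholds and leaving out pseudogene symbols. Counting and centring were tested on simulated data. Python 3.11.15, pandas 2.3.3, scipy 1.17.1, statsmodels 0.14.6 and matplotlib 3.10.9 were used.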

Additional observations from a re-analysis of the deposited data

Results flagged for a closer look

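A genotype difference greater than 2-fold in MPPs and of the opposite sign in GMPs was found for 5 members as deposited. Among all 85 members 30 were higher in Bcl11a-/- GMPs, so some opposite signs would be found without any link to the MPP difference. Mrpl11, whose GMP difference was 0.01, turned just below 0 in GMPs when the values were centred on the median of all probe sets, which left 4. As deposited, the MPP difference minus the GMP difference, on the log2 scale, was -1.69 for Mrpl50, -1.37 for Mrpl34, -1.59 for Mrps26, -1.42 for 1 probe set of Mrps5 and -1.18 for Mrpl11. In GMPs the 5 were higher in Bcl11a-/- cells by 0.01 (Mrpl11) to 0.34 (Mrps26), and the other probe set of Mrps5 was lower in both populations (-0.62 in MPPs, -0.33 in GMPs). With 1 array per condition the difference between the populations was not tested.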

How the results depend on the processing

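No alternative reversed a subunit median. Of the subunit medians and counts of members recomputed under alternatives, 128 stayed within 0.1 on the log2 scale or within 1.5 times the count, and 16 moved as follows. For Bcl11a-/- minus WT MPP, the large subunit median was -0.41 after lowess centring and -0.35 after renewed quantile normalization, and 33 members were lower at a 1.5-fold threshold and 4 at 3-fold. For WT MPP minus WT GMP, the small subunit median was -0.21 after lowess centring, and 30 members were lower at 1.5-fold and 1 at 3-fold. After renewed quantile normalization the large and small medians there were -0.29 and -0.15. That normalization left 5 members lower by over 2-fold, against 2.26% of all probe sets. For Bcl11a-/- MPP minus Bcl11a-/- GMP, the large and small medians were -1.06 and -0.75 when centred on the median of all probe sets, -0.77 and -0.48 after renewed quantile normalization, and 13 members were lower at 3-fold. The large median there was -0.85 without the 7 probe sets whose array neighbors lie on another chromosome, an alternative chosen after seeing the data. No share of all probe sets was taken at 1.5-fold or 3-fold, so the counts at these thresholds have no background beside them. The causes of these shifts were not tested. Of 720 differences of single named probe sets, 178 moved by over 0.1 (85 of 180 after renewed quantile normalization, by up to 0.57, 48 after lowess centring, by up to 0.22, and 45 after median centring, by up to 0.11). No difference past 2-fold changed sign, whereas smaller ones did in 3, 1 and 5 cases, the largest of them 0.21 as deposited. In GMPs no member was past the threshold at 2-fold, 1.5-fold or 3-fold, in either direction and under every alternative run. Leaving out pseudogene symbols gave no separate value, since no member has one. No paired analysis was possible because each condition has 1 array, and for the same reason no replicate could be left out.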
